A study of Mus musculus with 8 samples.

Results

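The secreted proteins described here are 9 hepatokines and stress hormones that the liver releases into blood: Inhbc, Inhbe, Gdf15, Fgf21, Ahsg, Fetub, Angptl4, Angptl6 and Lect2. They were taken by gene symbol from an Illumina bead array of liver RNA, where they have 11 probes among 45281 and are 9 of 30869 listed symbols. The samples were livers of 8 male C57BL/6J mice, 1 array per mouse, all kept from 6 weeks of age on a diet with 60% of its calories from fat. After 14 weeks on the diet, 4 mice received an oligonucleotide that pairs with Mogat1 RNA and directs its breakdown (antisense oligonucleotide, ASO), and the other 4 a scrambled control ASO, both at 25 mg/kg in 2 intraperitoneal injections a week for 3 weeks. All mice are listed at 25 weeks of age. The Mogat1 enzyme acylates monoacylglycerol to diacylglycerol, and the comparison asks how the livers of obese mice differ in expression when it is targeted.

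Hepatokines carry information about the metabolic state of the liver to other organs. Fgf21 and Gdf15 act as stress hormones: FGF21 signals through an FGF receptor joined to the co-receptor beta-Klotho, and GDF15 acts on GFRAL in the hindbrain to lower food intake. Both are known targets of the integrated stress response, in which kinases of the translation factor eIF2 raise the transcription factors ATF4 and CHOP, and Fgf21 and Angptl4 are also textbook targets of the fatty acid sensor PPAR-alpha. INHBC and INHBE are activin subunits of the TGF-beta family, fetuin-A (Ahsg) and fetuin-B (Fetub) are cystatin-like plasma glycoproteins, and ANGPTL4 inhibits lipoprotein lipase.

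Levels are given as log2 of the normalized array signal, and a probe was taken as detected on an array at a detection p-value under 0.05. Between 15788 and 16944 probes were detected per array, at a median signal of 84.3 to 112. The single Mogat1 probe was not above background on any array (lowest detection value 0.814), so the lowering of the targeted transcript could not be read. Mogat1 ASO replicate 1 stood apart from its group: its score on the first principal component was 8.36, where replicates 2 to 4 of Mogat1 ASO scored 23.6 to 29.2 and the control ASO arrays -25.8 to -16.7. In a fit that weights arrays by their quality it had the lowest weight (0.426), followed by control ASO replicate 1 (0.598), and results that rest on these arrays are given with and without them. In whole liver, a lower level can come from fewer cells of a type or from less RNA per cell, which cannot be told apart.

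Of the 11 hepatokine probes, 9 probes of 8 genes were detected on all 8 arrays and tested, while the Lect2 probe and 1 of the 2 Angptl4 probes were not above background on any array. Inhbc fell in Mogat1 ASO livers and was the 1 tested probe of 9 that passed an adjusted p of 0.05 (limma, two-sided, Benjamini-Hochberg over 16487 probes), or 11.1%, where 12.6% of all tested probes passed, 5.93% lower and 6.68% higher. The count for the hepatokines was thus close to the background of the comparison. It was 2 without Mogat1 ASO replicate 1, control ASO replicate 1 or control ASO replicate 4, and 0 without Mogat1 ASO replicate 3 or control ASO replicate 2. Inhbc was also the 1 hepatokine probe with groups that did not overlap, a property of 18.1% of all tested probes. Point estimates were lower for 5 probes and higher for 4, with a median log2 difference of -0.11, against -0.0038 over all tested probes.

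**Figure D1:**
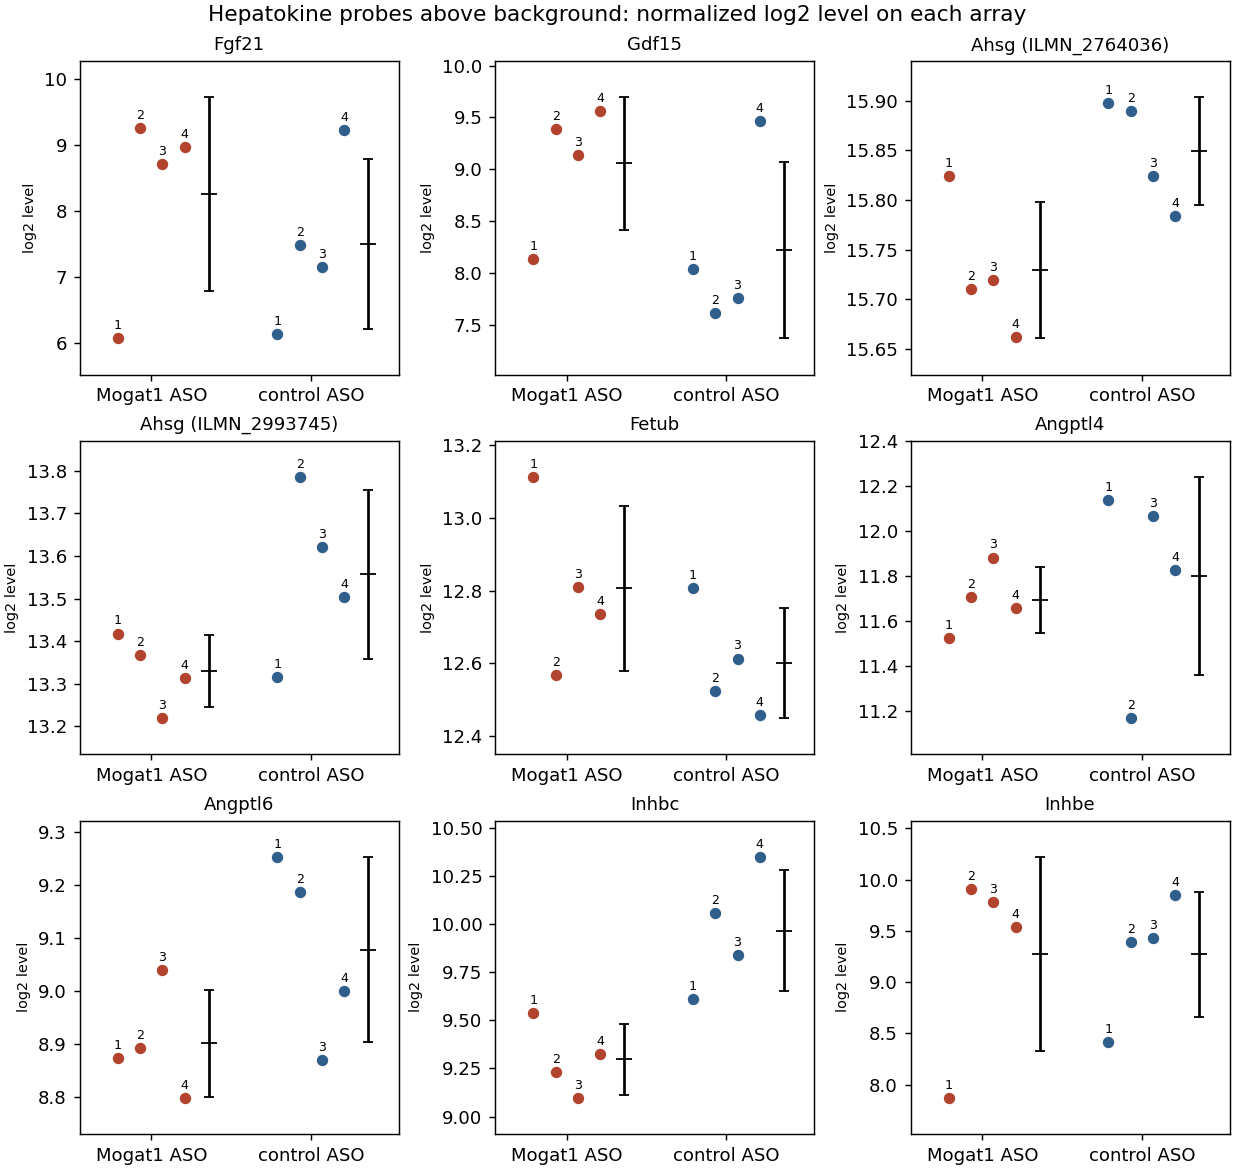
Normalized log2 level (y axis, separate scale per panel) of the 9 hepatokine probes detected on every array, on the 4 Mogat1 ASO arrays (red, left) and the 4 control ASO arrays (blue, right). Numbers are the mice, and the black bar is the group mean with its SD; only in the Inhbc panel do all Mogat1 ASO arrays lie below all control ASO arrays, and in the Fgf21, Inhbe and Gdf15 panels the mice of either group span 1.43 to 3.19 log2 units.

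Inhbc, which encodes the activin beta-C subunit made mainly by liver, had log2 levels of 9.54, 9.23, 9.10 and 9.32 in Mogat1 ASO replicates 1 to 4, and of 9.61, 10.06, 9.84 and 10.35 in control ASO replicates 1 to 4. The highest Mogat1 ASO array, replicate 1, lay just below the lowest control ASO array, also replicate 1. The mean was 9.30 ± 0.19 in Mogat1 ASO livers and 9.97 ± 0.31 in control ASO livers (SD, n = 4 each), a 1.59-fold lower level (log2 difference -0.67, SE 0.15, 95% interval -1.003 to -0.332, limma adjusted p = 0.0165). The exact two-sided permutation test over the 70 assignments of the arrays gave p = 0.0286, the smallest it can give. The call ended when Mogat1 ASO replicate 3 (difference -0.60, adjusted p = 0.0572) or control ASO replicate 2 (difference -0.64, adjusted p = 0.0537) was left out. Without replicate 1 of both groups the difference was -0.86 (adjusted p = 0.0018).

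Inhbe, the neighbouring gene on chromosome 10 that encodes the activin beta-E subunit of hepatocytes, gave no such separation. The annotated gene bodies of Inhbe and Inhbc lie 4473 bases apart in GRCm38.p6. Inhbe had log2 levels of 7.87, 9.91, 9.78 and 9.53 in Mogat1 ASO livers and of 8.41, 9.39, 9.43 and 9.84 in control ASO livers. The lowest array of each group was replicate 1, and the other 6 arrays lay within about the same range. The group means were 9.27 ± 0.95 and 9.27 ± 0.61 (SD, n = 4 each), and the log2 difference of 0.01 (SE 0.42, adjusted p = 0.995) had a 95% interval of -0.92 to 0.93, which covers both a fold of 0.530 and one of 1.90. The sign of this difference turned under several settings, with median scaling (-0.03) and without Mogat1 ASO replicate 2, 3 or 4 or control ASO replicate 1 among them. Whether Inhbc and Inhbe responded differently was not tested.

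Fgf21 varied most between mice of 1 group among the hepatokines. Its log2 levels were 6.06, 9.26, 8.71 and 8.96 in Mogat1 ASO livers, against 6.13, 7.48, 7.14 and 9.22 in control ASO livers. Replicates 2 to 4 of the Mogat1 ASO mice were thus high, while Mogat1 ASO replicate 1 was as low as the lowest control mouse and control ASO replicate 4 as high as the highest treated ones. Within a group the highest and lowest mouse differed 9.15-fold under Mogat1 ASO and 8.54-fold under control ASO. The means were 8.25 ± 1.47 and 7.49 ± 1.29 (SD, n = 4 each), and the 1.69-fold higher level in Mogat1 ASO livers (log2 difference 0.76, SE 0.72, adjusted p = 0.546, exact permutation p = 0.486) had an interval from 0.561-fold to 5.08-fold. Neither a clear rise nor the lack of one can be read from that interval. Leaving out Mogat1 ASO replicate 1 gave a difference of 1.48 (adjusted p = 0.0799), leaving out control ASO replicate 4 one of 1.33 (adjusted p = 0.243), and leaving out control ASO replicate 1 one of 0.30 (adjusted p = 0.83).

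Gdf15, the anorexigenic stress hormone, lay in 2 separate ranges that followed the groups only in part. It had log2 levels of 8.14, 9.39, 9.14 and 9.56 in Mogat1 ASO livers, against 8.04, 7.61, 7.76 and 9.46 in control ASO livers. As for Fgf21, replicates 2 to 4 of Mogat1 ASO and replicate 4 of control ASO were high and the other 4 arrays low. The mean was 9.06 ± 0.64 in Mogat1 ASO livers and 8.22 ± 0.85 in control ASO livers (SD, n = 4 each), a 1.79-fold higher level that did not pass the threshold (log2 difference 0.84, SE 0.40, 95% interval -0.04 to 1.71, adjusted p = 0.197, exact permutation p = 0.143). The threshold was passed when control ASO replicate 4 was left out (difference 1.25, adjusted p = 0.0258) or Mogat1 ASO replicate 1 (difference 1.14, adjusted p = 0.0492). Without replicate 1 of both groups it was not (difference 1.08, adjusted p = 0.0746).

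**Figure D2:**
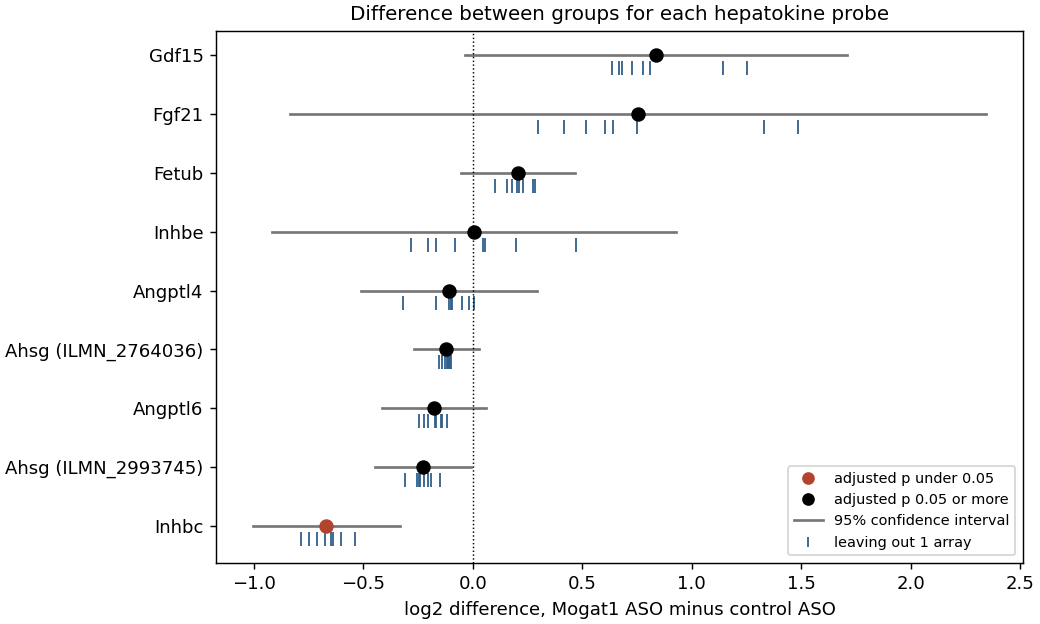
Log2 difference in level, Mogat1 ASO minus control ASO (x axis), for the 9 tested hepatokine probes (rows), with the 95% confidence interval of the fit over all arrays (grey line) and the difference with each array left out in turn (blue ticks). The interval of Inhbc lies from -1.003 to -0.332, while those of Fgf21 and Inhbe are the widest and hold 0.

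The spread between mice of the same group was wide for Fgf21, Inhbe and Gdf15, given here as a description. The SD within groups was 1.38 log2 units for Fgf21, above 99.9% of all tested probes and above 99.8% of those of like level (1 of 10 bins by mean level). It was 0.80 for Inhbe (above 99.3% of all tested probes) and 0.75 for Gdf15 (above 99.2%). The median over all tested probes was 0.18. Fetub (0.19) was above 55.9% of all tested probes and the dimmer Ahsg probe, ILMN_2993745 (0.15), above 35.2%, or above 76.3% and 61.8% of those of like level. The brighter Ahsg probe, ILMN_2764036, had an SD of 0.06, but its signals of 49996 to 63170 lay near the highest signal of any probe on an array, 61691 to 67005, where differences can be compressed, so its small spread is not read as stability. Angptl4 (0.33) and Inhbc (0.26) were above 89.9% and 78.0% of probes.

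**Figure D3:**
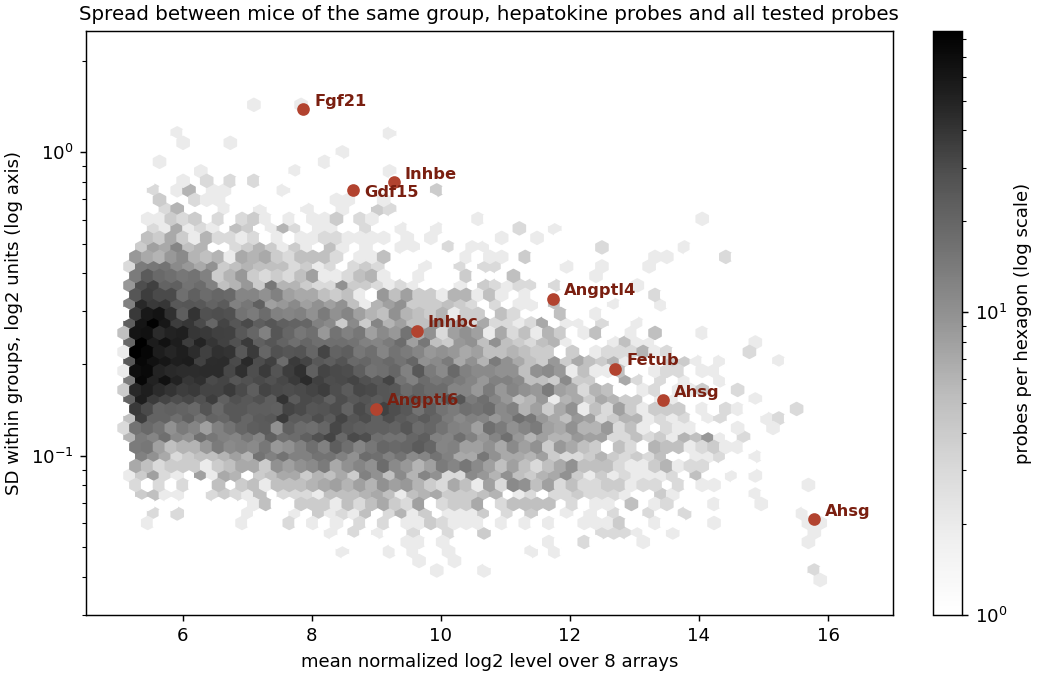
SD between mice within groups (y axis, log scale, log2 units) against mean normalized log2 level over the 8 arrays (x axis) for all 16487 tested probes (grey hexagons, darker where more probes lie) and the 9 hepatokine probes (red). Fgf21, Inhbe and Gdf15 lie above the bulk of probes of like level, and the Ahsg probe at the lower right lies near the highest signals of the arrays.

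Fgf21 and Inhbe varied together from mouse to mouse. Over the 8 arrays Pearson's r was 0.90 (exact permutation p = 0.00062, adjusted p = 0.0174 over the 28 pairs of 8 hepatokine genes) and Spearman's rho was 0.95 (exact permutation p = 0.00114, adjusted p = 0.0319). All pairs were computed after the levels had been seen. The 2 arrays farthest from the median of Fgf21 were replicate 1 of both groups, and without them r was 0.85; after the group means were taken out, r over all 8 arrays was 0.94. No other pair passed after adjustment over the untouched levels. In these pairs Ahsg was read by its brighter probe, ILMN_2764036, whose differences can be compressed. On the measure with group means taken out, which was not tested, Fetub ran opposite to Inhbe (r = -0.94) and to Fgf21 (r = -0.93) about as closely. With the group means left in, r over the 8 arrays was -0.80 for Fetub with Inhbe and -0.60 for Fetub with Fgf21. Without replicate 1 of both groups, and again with the group means left in, r was -0.05 and 0.07. The measure with group means taken out was not computed without those arrays, so how far it rested on them is not known. Whether the relation is particular to Fgf21 and Inhbe was not tested. The levels of Gdf15 fell into 2 separate clusters of 4 arrays, so its relation to the others could not be tested as 1 correlation. The 4 arrays high in Gdf15 were also the 4 highest in Fgf21, and among the other 4 the lowest in Fgf21, replicate 1 of both groups, were the higher in Gdf15. Inhbc showed no such relation to its neighbour Inhbe (r = 0.02, exact permutation p = 0.972).

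**Figure D4:**
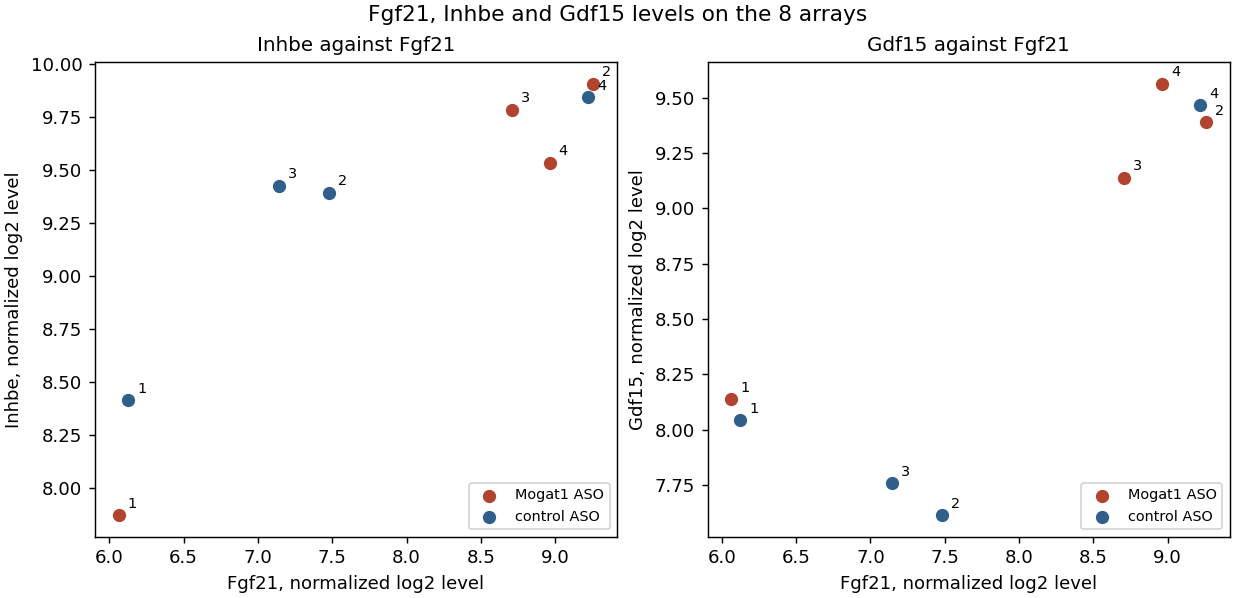
Normalized log2 level of Inhbe (left) and Gdf15 (right) against that of Fgf21 on the 8 arrays, Mogat1 ASO in red and control ASO in blue, with mouse numbers. Inhbe is lowest on both replicate 1 arrays, which are also lowest in Fgf21, and control ASO replicate 4 lies among the Mogat1 ASO arrays in both panels.

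The promoter windows of Fgf21 and Inhbe, the pair that varied together, and of Inhbc, which fell, are shown for comparison. They are RefSeq windows from build GRCm38.p6, from 250 bases before to 50 after the start of the gene, each read 5′ to 3′ on the strand of the gene, which is the minus strand for all of them. Capitals mark matches to TGATGNAA, the shared part of the element bound by ATF4 with C/EBP proteins, on either strand.
Fgf21, chr7:45615441-45615740: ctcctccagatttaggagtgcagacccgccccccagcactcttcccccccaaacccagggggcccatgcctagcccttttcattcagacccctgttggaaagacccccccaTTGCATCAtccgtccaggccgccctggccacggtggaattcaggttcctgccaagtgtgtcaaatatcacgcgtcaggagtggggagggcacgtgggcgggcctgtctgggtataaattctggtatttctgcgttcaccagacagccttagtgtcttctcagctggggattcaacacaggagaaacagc
Inhbe, chr10:127351799-127352098: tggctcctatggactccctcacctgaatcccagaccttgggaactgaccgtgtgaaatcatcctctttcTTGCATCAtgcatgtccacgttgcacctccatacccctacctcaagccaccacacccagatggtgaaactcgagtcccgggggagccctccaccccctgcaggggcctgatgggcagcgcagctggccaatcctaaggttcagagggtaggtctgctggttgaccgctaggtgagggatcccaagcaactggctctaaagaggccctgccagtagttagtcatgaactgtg
Inhbc, chr10:127370499-127370798: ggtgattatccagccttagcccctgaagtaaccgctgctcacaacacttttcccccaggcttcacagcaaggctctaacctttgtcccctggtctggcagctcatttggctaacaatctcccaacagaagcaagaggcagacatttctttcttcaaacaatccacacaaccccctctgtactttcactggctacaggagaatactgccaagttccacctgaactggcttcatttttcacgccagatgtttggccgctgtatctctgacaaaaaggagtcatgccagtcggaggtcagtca

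Both the Fgf21 and the Inhbe window held the same 8 letters TTGCATCA, the reverse complement of TGATGCAA, at positions -139 to -132 and -181 to -174 from the start of the gene. The motif TGATGNAA was present on either strand in 3.97% of the 32851 windows of this length, and its special case TGATGCAA in 0.895%. Of the 10 windows listed for 8 of the hepatokine genes, these were the 2 that held it, and the Inhbc window did not. The E-box CACGTG (7.15% of windows) was found in the Fgf21 window at -50 to -45 and in 1 of 2 windows of Gdf15 at -83 to -78. TATAAA (13.6% of windows) was found at -28 to -23 in Fgf21 and at -31 to -26 in 1 of 2 windows of Fetub. Neither TGACGT (7.51% of windows) nor a perfect PPAR element, AGGTCA repeated after 1 base (0.0396%), occurred in a hepatokine window. A match is a description of letters, and binding was not measured.

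No probe of the plasma glycoproteins passed the threshold. Ahsg encodes fetuin-A, which carries mineral in plasma and inhibits the insulin receptor, and was read by 2 probes. On ILMN_2764036 its log2 levels were 15.82, 15.71, 15.72 and 15.66 in Mogat1 ASO livers and 15.90, 15.89, 15.82 and 15.78 in control ASO livers. The groups overlapped in Mogat1 ASO replicate 1, and the log2 difference was -0.12 (SE 0.07, adjusted p = 0.281, exact permutation p = 0.0857). On ILMN_2993745 the levels were 13.42, 13.37, 13.22 and 13.31 in Mogat1 ASO livers and 13.32, 13.79, 13.62 and 13.50 in control ASO livers. Control ASO replicate 1 lay inside the Mogat1 ASO range, and the difference was -0.23 (SE 0.10, adjusted p = 0.167), a call only with array weights (-0.31, adjusted p = 0.0363), without control ASO replicate 1 (-0.31, adjusted p = 0.0496) and without replicate 1 of both groups (-0.34, adjusted p = 0.0239). Both point estimates were below 0. The interval of ILMN_2993745 reached down to 0.733-fold, and none is read from ILMN_2764036, since signals near the top of the range can understate a difference.

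Fetub, which encodes fetuin-B and lies 18930 bases from Ahsg on chromosome 16, had log2 levels of 13.11, 12.57, 12.81 and 12.74 in Mogat1 ASO livers. They were 12.81, 12.53, 12.61 and 12.46 in control ASO livers. The highest was Mogat1 ASO replicate 1, and the groups overlapped. The log2 difference of 0.21 (SE 0.12, 95% interval -0.06 to 0.47, adjusted p = 0.291) did not pass. It was 0.10 without Mogat1 ASO replicate 1 (adjusted p = 0.515), 0.12 with median scaling (adjusted p = 0.635) and 0.17 without replicate 1 of both groups (adjusted p = 0.192). The difference between the 2 fetuins was not tested.

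Of the angiopoietin-like proteins, Angptl4, the inhibitor of lipoprotein lipase, was read by ILMN_2759365 at 11.52, 11.70, 11.88 and 11.66 in Mogat1 ASO livers and at 12.14, 11.17, 12.06 and 11.82 in control ASO livers. Control ASO replicate 2 was the lowest of all arrays and control ASO replicates 1 and 3 the highest, so the groups overlapped. The log2 difference was -0.11 (SE 0.18, 95% interval -0.51 to 0.30, adjusted p = 0.756), and its sign turned with array weights (0.03), without control ASO replicate 1 (0.01) and without replicate 1 of both groups (0.06). The other Angptl4 probe, ILMN_2424627, had a lowest detection value of 0.128. Angptl6, a circulating protein that raises energy use in mice, had log2 levels of 8.87, 8.89, 9.04 and 8.80 in Mogat1 ASO livers and of 9.25, 9.19, 8.87 and 9.001 in control ASO livers. The groups overlapped, and the difference of -0.18 (SE 0.11, 95% interval -0.41 to 0.06, adjusted p = 0.316) did not pass.

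Lect2 encodes leukocyte cell-derived chemotaxin, a hepatokine that binds the receptors MET and TIE1. Its 1 probe was not above background on any of the 8 arrays (lowest detection value 0.0513), so no fold is given. The single probe of albumin, the most abundant plasma protein of liver, was likewise not detected on any array (lowest detection value 0.0609). Whether Lect2 RNA was present or differed was not measurable here.

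Related genes are given as counts over lists, to be read against the 5.93% of all tested probes that fell and the 6.68% that rose. Among receptors of the stress hormones, 3 of 8 genes were tested, and 1 fell. Klb, which encodes beta-Klotho, the co-receptor of FGF21, had log2 levels of 7.64, 7.24, 7.11 and 7.19 in Mogat1 ASO livers, against 7.91, 8.07, 7.91 and 7.79 in control ASO livers. Every Mogat1 ASO array lay below every control ASO array, for a log2 difference of -0.62 (1.54-fold lower, SE 0.13, limma adjusted p = 0.0112). Klb kept its call under all 20 alternative settings. Fgfr2, another FGF receptor, differed by 0.08 (SE 0.11, adjusted p = 0.709). Kl, Fgfr1, Gfral and Ret were not detected on any array.

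In the integrated stress response, 2 of 21 tested genes rose and none fell, with a median log2 difference of 0.20. The share that rose, 9.52%, compares with 6.68% of all tested probes. An unadjusted p under 0.05 was found for 7 higher and 2 lower genes, or 42.9%, against 28% of all tested probes. Ddit3, which encodes CHOP, had log2 levels of 7.86, 8.37, 8.77 and 8.31 in Mogat1 ASO livers and of 7.19, 7.16, 7.40 and 7.90 in control ASO livers. Control ASO replicate 4, high in Fgf21 and Gdf15, was also the highest control in Ddit3 and lay above Mogat1 ASO replicate 1, while the other 3 control mice lay below every Mogat1 ASO mouse. Ddit3 was 1.89-fold higher (SE 0.20 on the log2 scale, adjusted p = 0.0149; adjusted p = 0.0507 without control ASO replicate 2). Eif2ak2, the kinase PKR that responds to double-stranded RNA and is induced by interferon, was 1.42-fold higher (SE 0.08, adjusted p = 0.0037). The RNA of Atf4 itself differed by -0.18 (SE 0.14, adjusted p = 0.43) and did not pass.

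Of 16 tested transcriptional regulators of hepatokine genes, 1 rose and 1 fell, with a median log2 difference of -0.07. Trp53, which encodes p53, a known activator of Gdf15, was 1.42-fold higher (SE 0.12, adjusted p = 0.0169). Median scaling ended its call (adjusted p = 0.0779), as did leaving out replicate 3 (0.0591) or 4 (0.0522) of Mogat1 ASO or replicate 2 of control ASO (0.0515). Mlxipl, which encodes the carbohydrate sensor ChREBP, was 1.33-fold lower (SE 0.11, adjusted p = 0.0363), and its call ended under 7 of 20 alternatives (adjusted p up to 0.105). Of 11 tested PPAR-alpha targets, 1 fell and none rose: Acot1, an acyl-CoA thioesterase, was 3.65-fold lower (SE 0.29, adjusted p = 0.0027). The mean log2 level over the 11 PPAR-alpha targets was 10.02 on Mogat1 ASO replicate 1 and 10.31 on control ASO replicate 1, the arrays lowest in Fgf21 and Inhbe, and 10.50 to 11.22 on the other 6 arrays; its part in the hepatokine values was not tested.

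None of 9 tested activin ligands, receptors and antagonists passed in limma (2 had an unadjusted p under 0.05), with a median log2 difference of -0.11. Bmpr2, a type II receptor of the TGF-beta family, differed by -0.36 (SE 0.11, adjusted p = 0.0564), and the signal transducer Smad3 by 0.02 (SE 0.11, adjusted p = 0.929). Acvr1c, which encodes the activin receptor ALK7, was not detected on any array. Of 6 tested genes of the angiopoietin-like and lipoprotein lipase group, Lpl, the enzyme that ANGPTL4 inhibits, was 1.88-fold higher (SE 0.22, adjusted p = 0.02), a call lost on leaving out control ASO replicate 2 (adjusted p = 0.058) or 3 (0.0619). The log2 level of Lpl was 11.90 on Mogat1 ASO replicate 1, against 10.78, 10.99 and 10.72 on replicates 2 to 4 and 10.04 to 10.29 in control ASO livers. The size of the fold thus leans on Mogat1 ASO replicate 1. Lmf1, needed for the folding of lipases, was 1.26-fold lower (SE 0.08, adjusted p = 0.0228), and its call ended under 6 of 20 alternatives (adjusted p up to 0.074). Of 7 tested relatives and partners of the fetuins, the cysteine protease inhibitor gene Cstb was 1.32-fold higher (SE 0.08, adjusted p = 0.0078; adjusted p = 0.103 with median scaling), while Kng1, a cystatin-family kininogen, differed by 0.02 (SE 0.06, adjusted p = 0.862). Kng1 had means of 15.79 and 15.77, near the highest signals, where differences can be compressed, so its value is not read as a lack of change. None of the 3 tested genes listed with the LECT2 receptors passed in limma, and none had an unadjusted p under 0.05. Tie1 differed by 0.19 (SE 0.18, adjusted p = 0.54), and Tek, which is not among the LECT2 receptors named above, by -0.09 (SE 0.12, adjusted p = 0.68).

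**Figure D5:**
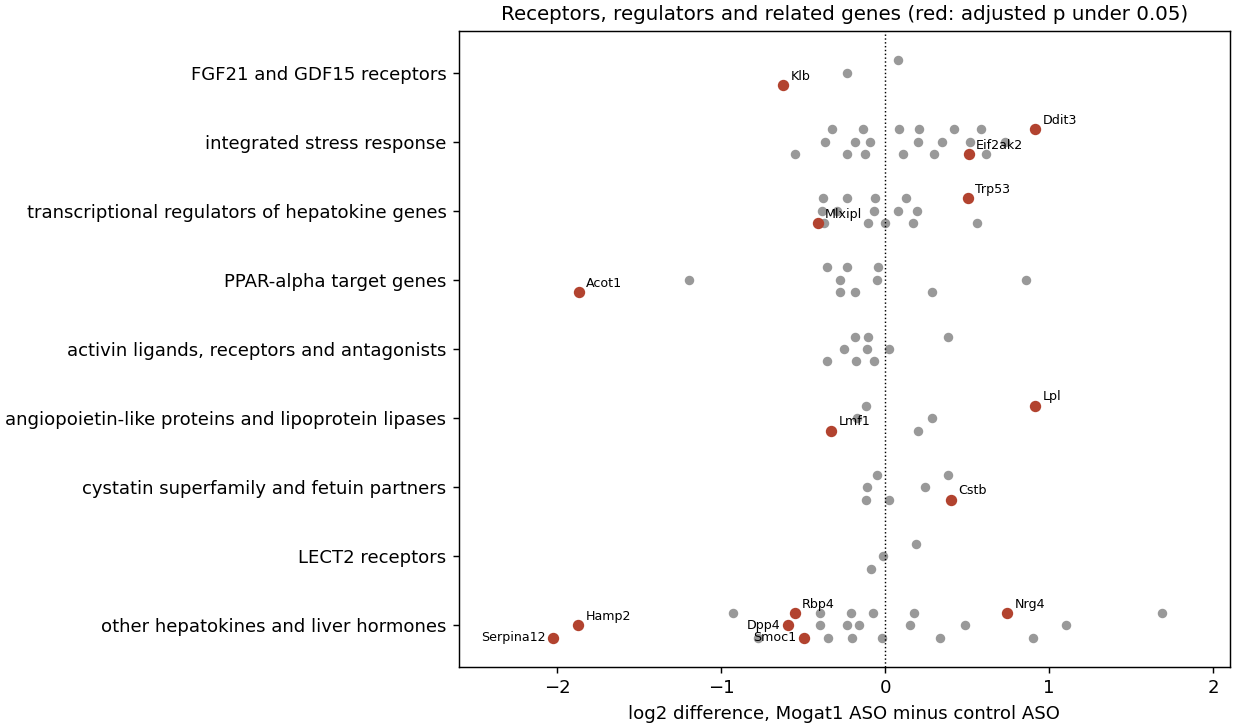
Log2 difference, Mogat1 ASO minus control ASO (x axis), of each tested gene in 9 lists of receptors, regulators and related secreted proteins (rows; points are spread vertically for legibility). Red points are genes with an adjusted p under 0.05, which are named; Serpina12, among the other hepatokines, lies farthest to the left at -2.03.

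Of 24 other tested hormones and secreted proteins of the liver, 5 fell (20.8%, against 5.93% of all tested probes) and 1 rose (4.17%, against 6.68%), with a median log2 difference of -0.20. An unadjusted p under 0.05 was found for 10 lower and 4 higher genes, or 58.3%, against 28% of all tested probes. Of the 5 that fell, Rbp4, the plasma carrier of retinol, lost its call under 8 of 20 alternatives (adjusted p up to 0.125); it lies outside the rule for named genes and was chosen after its values were seen. Serpina12, which encodes vaspin, had log2 levels of 11.17, 10.67, 9.91 and 10.12 in Mogat1 ASO livers, against 12.74, 12.35, 12.63 and 12.26 in control ASO livers, 4.08-fold lower (SE 0.23, adjusted p = 5.95e-04). Hamp2, a hepcidin gene, was 3.66-fold lower (SE 0.42, adjusted p = 0.015). The call for Hamp2 ended without Mogat1 ASO replicate 3 (adjusted p = 0.0519) and under robust variance estimation (0.0709). Dpp4, a peptidase that the liver sheds into plasma, was 1.51-fold lower (SE 0.08, adjusted p = 0.0012). The 1 that rose was Nrg4, a ligand of ERBB4, 1.67-fold higher (SE 0.20, adjusted p = 0.0332), with a call that ended under 6 of 20 alternatives (adjusted p up to 0.0968).

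Markers of cell types were read beside these values. Of 10 tested hepatocyte markers, 1 rose (Cyp3a11) and none fell, and their summed signal was 253321 to 266117 on Mogat1 ASO arrays and 254452 to 274663 on control ASO arrays. The brightest of them, Trf, Apoa1 and Ambp, had group means of 15.70 to 15.91, near the highest signals, where differences can be compressed. The sum is therefore not read as an unchanged share of hepatocytes. Among these markers, 1 higher and 2 lower had an unadjusted p under 0.05, the lower being Serpina1a (log2 difference -0.57) and Hnf4a (-0.29). Of 13 tested macrophage markers, 4 rose (C1qa, Lyz2, C1qb and C1qc; 30.8%, against 6.68% of all tested probes) and none fell (the calls of Lyz2, C1qb and C1qc ended under 3, 4 and 9 of 20 alternatives), with a summed signal of 18361 to 25589 on Mogat1 ASO arrays and 13649 to 17623 on control ASO arrays. An unadjusted p under 0.05 was found for 6 higher macrophage markers and 1 lower, Timd4 (log2 difference -0.45). Clec4f, Adgre1 and Csf1r, also on this list, differed by -0.10, -0.02 and -0.045 and did not pass. The rise was thus not shared by all macrophage markers. None of 4 lymphocyte, 4 neutrophil or 3 cholangiocyte markers tested passed in limma or at an unadjusted p under 0.05. The stellate cell list had 1 of 7 lower, the endothelial list 1 of 8 higher and 1 lower, and the list of fat, pancreas, muscle and red cell markers 1 of 6 lower; the stellate and pancreas calls (Reln and Cela1) ended under 7 and 9 of 20 alternatives. The defining markers Cd8a and Cd4, Krt19 and Epcam, and Adipoq were not detected on any array. The part of these cell types in the hepatokine values was not tested.

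Genes whose levels over the 8 arrays were among the most like those of each hepatokine were listed as a description, since many probes reach a high r over 8 arrays. Inhbc was most like Slc17a2 (r = 0.98), Zfp367 (0.98) and Rb1 (0.97). Inhbe was most like Pex11a, a peroxisomal membrane protein (r = 0.98), Rps6ka1 (0.98) and Fitm2, an endoplasmic reticulum protein of lipid droplet formation (0.97). Fgf21 was most like Hectd2os, Tmem17 and Entpd5 (r = 0.97 each), and Gdf15 was like the lysosomal nuclease gene Dnase2a (0.99) and Rfc3 (0.96). For Ahsg, read by ILMN_2764036, whose differences can be compressed, these were Zap70 (0.98), Btaf1 (0.98) and Slc25a34 (0.98). For Fetub they were Itfg2 (0.97), Daxx (0.96) and Fcmr (0.96). Angptl4 was most like Ppm1m (r = 0.98), Klhdc4 (0.93) and the protease gene Furin (0.91), and Angptl6 like Cdpf1 (0.97), Ippk (0.97) and Dnajb11 (0.94).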

How the data were processed

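Liver RNA of 8 mice, 4 given Mogat1 ASO and 4 control ASO, was hybridised as biotin-labelled amplified RNA, per the labels' protocols. The deposited non-normalized table holds 45281 probes, with an intensity and a detection p-value on each array, per the file headers. No source used here names the software. The deposited series table of processed intensity was used as an alternative. Signals were corrected by normexp from the detection p-values, given an offset of 16, quantile normalized and brought to log2 (neqc in limma 3.58.1, R 4.3.3). Probes with detection under 0.05 on 4 or more arrays (16487) were fitted with lmFit and eBayes (variance trend), two-sided, Benjamini-Hochberg adjusted, threshold 0.05. Steps were tested on simulated data. Exact permutation tests, lists and promoters were run in Python 3.11.15 (pandas 2.3.3, scipy 1.17.1), figures in matplotlib 3.10.9. Levels of different probes are not compared as amounts of RNA. Sums and means over a list combine probes, with sums set mostly by the brightest, and are compared only between arrays. Precision is limited by the number of mice and, for some probes, by the background or by possible compression near the highest signals. Array signals carry no read depth.

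Members and lists were chosen with earlier results of these data known. In lists, symbols were updated through RefSeq GRCm38.p6 (27740 probes current, 8037 updated, 9382 unmatched, 122 matching several genes), and a gene is its brightest tested probe. Named were all 9 hepatokines, up to 4 genes past the threshold per list with the largest changes (where fewer than 2 passed, the brightest were added; cell type markers are given mainly by count), the 3 genes most correlated with each hepatokine over the 8 arrays, and Mogat1. Some genes that this rule names are not reported here. Alternatives were background correction, offset, scaling, value source, detection filter, variance model, array weights, replicate number as a block and leaving out arrays. The headers name no slide, so a slide block was not run.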

Additional observations from a re-analysis of the deposited data

How the results depend on the processing

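With 4 mice a group, the hormones that vary most between mice were measured with wide intervals. No background correction, an offset of 50, the deposited processed values, the detection filters, and eBayes without trend or robust changed no call among the hepatokine probes. Over all probes, 2078 passed, against 1251 with median scaling, 3561 with array weights, 1149 to 3098 with 1 array left out, and 3359 without replicate 1 of both groups, an alternative chosen after seeing the data. Hepatokine probes past the threshold numbered 1, against 2 with array weights, 0 to 2 with 1 array left out and 2 without replicate 1 of both groups. Leaving out 1 array gave log2 differences of -0.78 to -0.54 for Inhbc, 0.64 to 1.25 for Gdf15, -0.28 to 0.47 for Inhbe, -0.3165 to 0.007 for Angptl4 and -0.31 to -0.15 for the Ahsg probe ILMN_2993745. Inhbe was at -0.026 with median scaling. Angptl4 was at 0.0326 with array weights and 0.0628 without replicate 1 of both groups, and the Ahsg probe ILMN_2993745 passed at -0.31 and -0.34 under these settings. The cause was not tested.

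Whether the replicate numbers of the labels pair the mice cannot be settled from these arrays. Deviations from the group means correlated at 0.20, 0.08, -0.03 and 0.00 for numbers 1 to 4, and Mogat1 ASO replicate 2 correlated best with control ASO replicate 4 (0.27). With the replicate number as a block, 1967 probes and 1 hepatokine probe passed, the hepatokine probe being Inhbc (limma adjusted p = 0.0242). The block took the SE of Fgf21 from 0.72 to 0.33 (adjusted p = 0.175) and that of Inhbe from 0.42 to 0.18 (adjusted p = 0.989). Gdf15 did not pass with it (adjusted p = 0.0843).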
